A study of Mus musculus with 32 samples.

Results

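Wild-type cerebellum was measured in both arms of a mouse study of monogenic autism models, and the arrays described here are the wild-type cerebellum arrays by their labels: 8 of the 32 arrays of the series. Of these, 3 came from wild-type mice of the Tsc2 experiment (TscWT), which were kept on a mixed 129/SvJae-C57BL/6J background. The other 5 came from wild-type mice of the Fmr1 experiment (FmrWT), on a congenic C57BL/6 background. All mice were 8 to 10 weeks old, none of the 8 carried an engineered allele, and 250 ng of RNA per sample was read on Mouse Gene ST 1.0 arrays from Affymetrix, which carry probes along the whole transcript. The 8 mutant cerebellum arrays that stand beside them came from 3 Tsc2+/- mice, which have 1 working copy of the mTOR inhibitor Tsc2, and from 5 Fmr1-KO mice, in which FMRP, a protein that binds RNA and restrains translation, is missing. A labelled strain background never occurred in the other experiment, so strain, breeding colony and experiment cannot be told apart. Nothing in the labels says how many litters the mice came from.

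The cerebellum is built largely of granule cells, the most numerous neurons of the brain, whose signals converge on Purkinje cells, the only neurons that leave its cortex. Inbred strains such as C57BL/6 and 129 carry different alleles at many genes, and some of these alleles are known to set how much transcript a gene gives in brain. The comparison of the wild types asks how far 2 sets of mice without a mutation already differ when the strain background and the experiment differ. Differences below run from FmrWT to TscWT, so that a positive log2 difference means a higher intensity in TscWT.

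The deposited values are linear intensities from the PLIER model, 1 level for each of 35556 probe sets. The median intensity of the 8 arrays was 188 to 217, and the mean correlation of an array with the others of its group was 0.92 to 0.94 across probe sets. FmrWT mouse 1 and TscWT mouse 1 had the lowest array weights in limma, 0.21 and 0.43 against 0.77 to 2.31 for the other 6. By correlation TscWT mouse 1 was not apart, as its mean of 0.931 was the highest of its group. Among the mutants, Fmr1-KO mouse 1 stood apart with a median of 257 and a mean correlation of 0.86. The labels give female and the methods male, and the arrays went against the label. In all 8 arrays the Y-linked Kdm5d lay between 565 and 755 and the X-inactivation RNA Xist between 44.5 and 76.8. The levels of the targeted genes overlapped between the wild types, with a log2 difference of 0.06 for Fmr1 and 0.17 for Tsc2. The defining markers of cerebellum were bright in all 8 arrays. Gabra6, a granule cell receptor subunit, was at 3774 to 6506, and Calb1, the calcium buffer of Purkinje cells, was at 6260 to 8390.

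In wild-type cerebellum 2 of 35556 probe sets passed an adjusted p under 0.05 in limma (Benjamini-Hochberg), which is 0.00562%, and the platform's table names a gene for neither. At an unadjusted p under 0.01, the study's threshold, called listed from here on, there were 458 probe sets or 1.29%, where a uniform spread of p would give 355.6. Of these, 135 were brighter in TscWT (0.38%) and 323 dimmer (0.908%). That split depends on the scaling: 29.5% of the listed probe sets were brighter as deposited, 60.2% after quantile normalization among the 8 arrays and 61.2% after centring each array on its median. The median log2 difference of all genes was 0.00 as deposited and 0.10 after centring. Taking 1 probe set per gene, 167 of 19938 genes were listed (0.838%), 42 brighter (0.211%) and 125 dimmer (0.627%). For genes the listed share thus lay under what a uniform spread of p would give. With all 8 arrays and equal weights no named gene passed the adjusted threshold, so the values below are given as measured levels. Acer2 and Rec8 passed it without FmrWT mouse 1.

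Gabra2, the alpha 2 subunit of the GABA-A receptor, had intensities of 844, 1058 and 793 in the TscWT mice. In the FmrWT mice it was at 475, 266, 254, 414 and 582. The groups did not overlap, as for 4.98% of all probe sets, and the ratio of the means was 2.25, with a log2 difference of 1.24 (SE 0.29, limma adjusted p = 0.557). Gabra2 is known as a gene at which C57BL/6J mice carry an allele of low expression. The substrain of the FmrWT mice is not given, and C57BL/6J is part of the mixed TscWT background. Which Gabra2 alleles these mice carried was not tested. In bulk tissue, fewer cells of a type and less RNA per cell cannot be told apart.

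Alad, the second enzyme of heme synthesis, was at 3157, 3691 and 3617 in TscWT and at 1562, 1952, 1421, 2287 and 1949 in FmrWT. Every TscWT mouse was above every FmrWT mouse, by 1.90-fold in the means (log2 difference 0.94, SE 0.17, adjusted p = 0.397 in limma). Acer2, a Golgi ceramidase that releases sphingosine, was the named gene with the smallest p among those brighter in TscWT. Its intensities were 461, 496 and 466 against 271, 227, 200, 219 and 180, a log2 difference of 1.13 (SE 0.14, limma adjusted p = 0.214). A second, dim probe set of Acer2 went the other way, with 36.8 to 39.9 in TscWT and 40.0 to 57.1 in FmrWT. Mrpl20, a protein of the large mitochondrial ribosome subunit, was at 476, 611 and 554 against 266, 257, 305, 256 and 348. Groups apart were part of the rule for naming the largest differences. The gaps of these 3 genes were wide in relation to the spread within a group.

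Nnt, the mitochondrial transhydrogenase that makes NADPH, is truncated by a deletion in C57BL/6J, and its alleles in these mice were not tested. It was at 493, 545 and 531 in TscWT and at 468, 403, 321, 354 and 371 in FmrWT. The groups were apart but close, with a ratio of the means of 1.36 and a log2 difference of 0.46 (limma adjusted p = 0.557). The other genes known for expression differences between strains were less clear. Of 12 measured genes in that list, 3 were listed, all brighter in TscWT (Gabra2, Alad and Nnt), against 0.838% of all genes. The list was chosen with earlier results of these data known, so this count is no independent evidence. The median log2 difference of the list was 0.11, with 8 genes positive and 4 negative. The largest difference of the list went the other way, at -3.28. None of the dimmer members was at p under 0.05 or had groups apart. Glo1, Kcnj9, Ide and Cox7a2l overlapped between the groups, with log2 differences of 0.21, 0.10, 0.12 and 0.09.

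**Figure D1:**
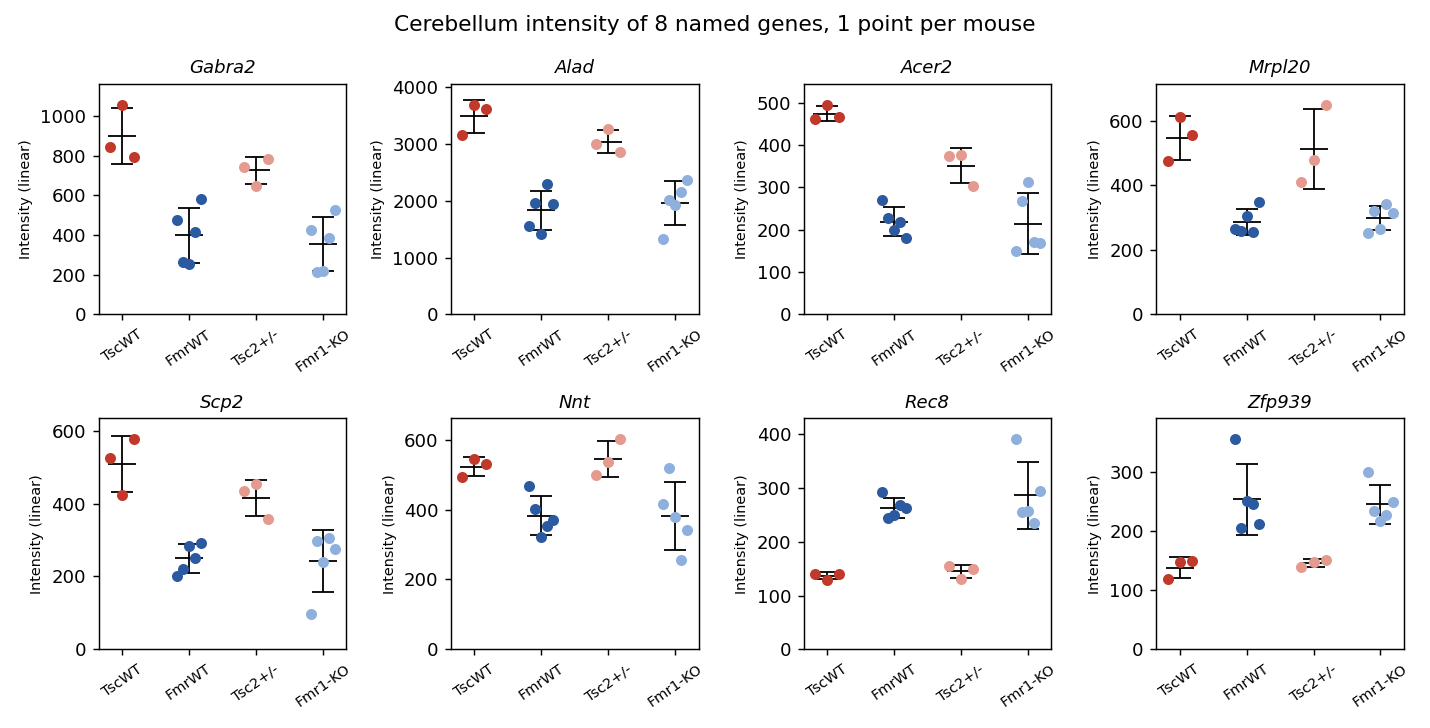
Linear intensity (y axis, from 0) of 8 genes in the 4 cerebellum groups (x axis); each point is 1 mouse, and the bars give the mean and 1 SD. TscWT lies above FmrWT without overlap for Gabra2, Alad, Acer2, Mrpl20, Scp2 and Nnt and below it for Rec8 and Zfp939; in the mutants the groups overlap for Acer2 and Nnt.

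Further genes that were brighter in TscWT had other roles. Tusc1, a small gene of chromosome 4, was at 239, 271 and 268 against 195, 83.5, 135, 118 and 135. Txnip, which binds thioredoxin and limits glucose uptake, was at 472, 570 and 559 against 363, 369, 312, 334 and 328. Both gave groups that did not overlap, as the naming rule required. Pxdn, a peroxidase of the basement membrane, had a log2 difference of 0.64 and Cracd, a regulator of actin capping, of 0.88, while other probe sets of Cracd had 0.18 and 0.02. Scp2, Rras2, Masp2, AI506816 and Nr4a3 were 5 of the 6 genes earlier picked on these samples as different in both tissues, so their listing is no independent evidence. Scp2, a peroxisomal lipid carrier, was at 526, 425 and 576 against 200, 221, 284, 251 and 292.

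The named gene with the smallest p was dimmer in TscWT. Rec8, a meiotic cohesin subunit, was at 140, 130 and 141 in TscWT and at 292, 243, 250, 268 and 263 in FmrWT. The highest TscWT value thus lay far under the lowest FmrWT value, and the mean was 1.92-fold higher in FmrWT (log2 difference -0.94, SE 0.10, limma adjusted p = 0.143). Zfp939, a zinc finger gene, was at 118, 147 and 149 against 355, 206, 252, 246 and 212. Gm16008, a predicted gene, was at 200, 192 and 177 against 352, 340, 318, 294 and 344. Cemip, which takes part in the breakdown of hyaluronan, was at 223, 227 and 244 against 359, 380, 351, 307 and 295. None of these 4 overlapped between the groups, as for 4.98% of all probe sets. For the leading genes the naming rule required this.

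In other dimmer genes the 3 TscWT mice were far apart from each other. Cldn2, a pore-forming tight junction protein, was at 79.5, 49.4 and 122 against 125 to 148, and Gmnc, a regulator of multiciliated cells, at 113, 59.8 and 87.1 against 126 to 136. Both were lowest in TscWT mouse 2. Myo7a, an unconventional myosin of sensory cells, was at 156, 123 and 232 against 250 to 265. Slc47a1, an exporter of organic cations, was at 141, 146 and 229 against 231 to 261. For Myo7a and Slc47a1 it was TscWT mouse 3 that came close to the FmrWT mice. Leaving out 1 mouse at a time, 20 of 58 named genes that were listed stayed listed in all 8 fits, among them Acer2, Alad, Mrpl20, Scp2, Rec8, Gm16008, Cemip, Txnip and Mir29a. Gabra2 stayed listed in 7 of 8 and Nnt in 1 of 8.

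The mutant mice gave a second look at the same pair of backgrounds in animals that the naming rule did not use. There the comparison was of Tsc2+/- with Fmr1-KO cerebellum, so the mutations differed along with the background. In it 1 probe set passed the adjusted threshold (0.00281%) and 431 were listed (1.21%). The leading genes are the 14 with the largest wild-type difference in each direction among bright listed genes whose groups were apart. Of the 14 leading genes brighter in TscWT, all 14 were also brighter in Tsc2+/- than in Fmr1-KO, 12 at p under 0.05 and 7 at p under 0.01, against 0.343% of probe sets listed in that direction. Of the 14 leading genes that were dimmer, all 14 were also dimmer in Tsc2+/-, 8 at p under 0.05 and 5 at p under 0.01, against 0.869%. Groups did not overlap in the same direction for 10 and for 6 of them, where 8.05% of all probe sets had mutant groups apart. The sign was shared between wild types and mutants by 75.8% of all probe sets. In the mutants 2311 of all 35556 probe sets were at p under 0.05 in either direction. The median log2 difference of the leading genes was 0.94 in the wild types and 0.70 in the mutants for the first set, and -0.66 and -0.55 for the second.

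**Figure D2:**
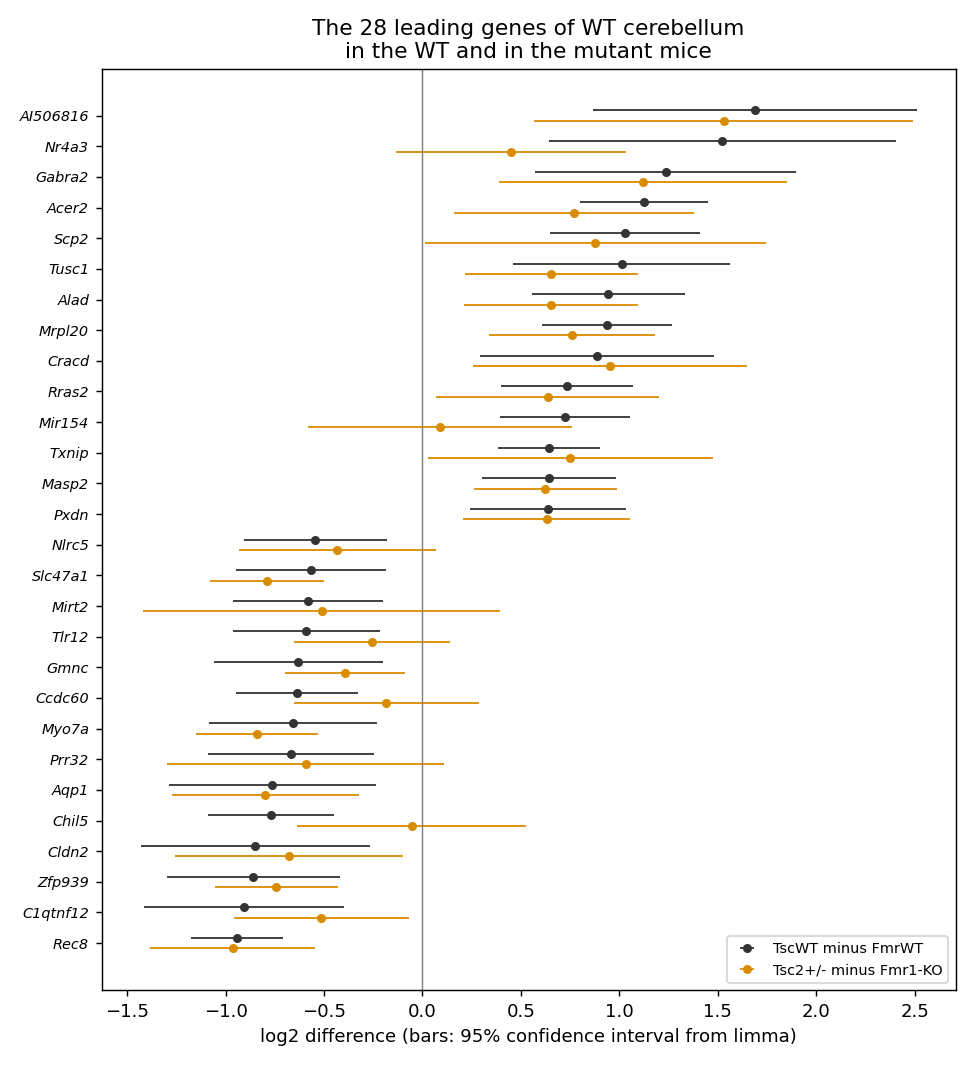
The log2 difference (x axis) of the 28 leading genes of the wild-type comparison (y axis) in wild-type and in mutant cerebellum; points are limma estimates and bars their 95% confidence intervals. All 28 mutant estimates have the sign of the wild-type estimate, while those of Chil5 and Mir154 lie near 0.

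Rec8 had much the same levels in the mutants, with 155, 131 and 149 in Tsc2+/- and 391, 255, 258, 234 and 295 in Fmr1-KO, a log2 difference of -0.96. Gabra2 was at 743, 649 and 786 in Tsc2+/- and at 424, 216, 219, 386 and 527 in Fmr1-KO (log2 difference 1.12, limma adjusted p = 0.594). Alad was at 2995, 3256 and 2857 against 1332, 2019, 1931, 2146 and 2374. In each of the 3 genes the mutant groups were apart in the direction of the wild types. Chil5, a chitinase-like secreted protein, did not repeat: it was at 117, 160 and 153 against 220 to 279 in the wild types, while the mutant log2 difference was -0.05. Mir154 had log2 differences of 0.73 in the wild types and 0.09 in the mutants.

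Over the whole array, 44 of the 458 listed probe sets were listed with the same sign in the mutants and 1 with the opposite sign. The 44 are 9.61% of the wild-type list and 10.2% of the mutant list, and they hold 34 distinct patterns of values. The sign alone was shared by 79.0% of the 458, close to the 75.8% of all probe sets. Of the 44, 22 had a gene name. Gabra2, AI506816, Tusc1, Alad, Mrpl20, Masp2, Pxdn and Tmem245 were brighter on the Tsc2 side. Rec8, Zfp939, Gm16008, Cemip, Myo7a, Slc47a1, Aqp1, Serpinh1, Foxc2, Slc26a7, Cyp2r1, Trim12a, Mir29a and G530011O06Rik were dimmer there.

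Averaging the wild-type and the mutant difference over all 16 cerebellum arrays, an analysis added after the data had been seen, put 44 probe sets under an adjusted p of 0.05 (0.124%). Apart from Fmr1, which is disrupted in the Fmr1-KO mice, 8 named genes rose on the Tsc2 side, where 0.0759% of probe sets did, and 11 fell, where 0.0478% did. Acer2, Alad, Mrpl20, Masp2, Hdhd3, Tmem245, Pih1d1 and Xk rose. Mrpl20 had an average log2 difference of 0.85 (SE 0.12, limma adjusted p = 0.0141), and Alad one of 0.80 (SE 0.13, adjusted p = 0.0253). Rec8, Zfp939, Gm16008, Cemip, Myo7a, Slc47a1, Serpinh1, Slc26a7, Cfhr3, Mir29a and G530011O06Rik fell. Rec8 had the smallest adjusted p of the named genes, 0.00225, with an average log2 difference of -0.95 (SE 0.10). Gabra2 missed the threshold (average 1.18, adjusted p = 0.0804). Leaving out any 1 of the 16 arrays gave 7 to 71 probe sets in place of 44, with the fewest without Tsc2+/- mouse 2 and the most without FmrWT mouse 1. The wild-type and the mutant difference themselves differed for 3 probe sets at an adjusted p under 0.05 (0.00844%), none with a gene name, and for 173 at p under 0.01 (0.487%).

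Of the 2 probe sets that passed in the wild types, probe set 10468877 rose in TscWT. It was at 594, 544 and 466 in TscWT and at 92.9, 95.7, 98.7, 158 and 103 in FmrWT, with a log2 difference of 2.31 (limma adjusted p = 0.0264). The Tsc2+/- mice had 509, 297 and 448, and the Fmr1-KO mice 299, 91.5, 108, 99.5 and 91.5. In blood the same probe set was at 16180 to 23050 in TscWT and at 66.2 to 1342 in FmrWT. Its groups were far apart in wild-type cerebellum and in wild-type blood, and they met only at Fmr1-KO mouse 1. The other, probe set 10340657, fell, but lay at an intensity near 0 in TscWT (0.00254 to 0.00685) and at 2.94 to 16.01 in FmrWT, where log2 differences become large for small changes of intensity.

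Listed genes lay on every autosome and on X, in unequal shares. Of the 14 leading brighter genes, Nr4a3, Acer2, Scp2, Tusc1, Alad, Mrpl20 and Masp2 lay on chromosome 4. Chromosome 4 had the highest share, 19 of 1154 genes (1.65%), 10 brighter and 9 dimmer. Of the genes listed with the same sign in both pairs, 7 lay on chromosome 4, 6 on chromosome 7 and at most 2 on any other. Chromosome 7 had 22 of 1734 genes listed (1.27%), 4 brighter and 18 dimmer, and chromosome 16 had 10 of 648 (1.54%). In the mutants the share was 1.21% on chromosome 4, 1.44% on chromosome 7 and 0.309% on chromosome 16. Of 385 full windows of 50 neighbouring genes, 262 held no listed gene and none held more than 3. Of 165 listed genes with a next gene, 3 (1.82%) were followed by a gene listed in the same direction. Of all genes, 0.211% were listed as brighter and 0.627% as dimmer. The wild-type pairs were Mir30a and Mir30c-2, Chil5 and Chia1, and Hdhd3 and Alad. In the mutants the count was 4 of 154 (2.60%), where 0.331% and 0.446% of all genes were listed. Hdhd3, a phosphatase-like gene beside Alad, was at 601, 631 and 645 against 442, 449, 405, 474 and 469.

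**Figure D3:**
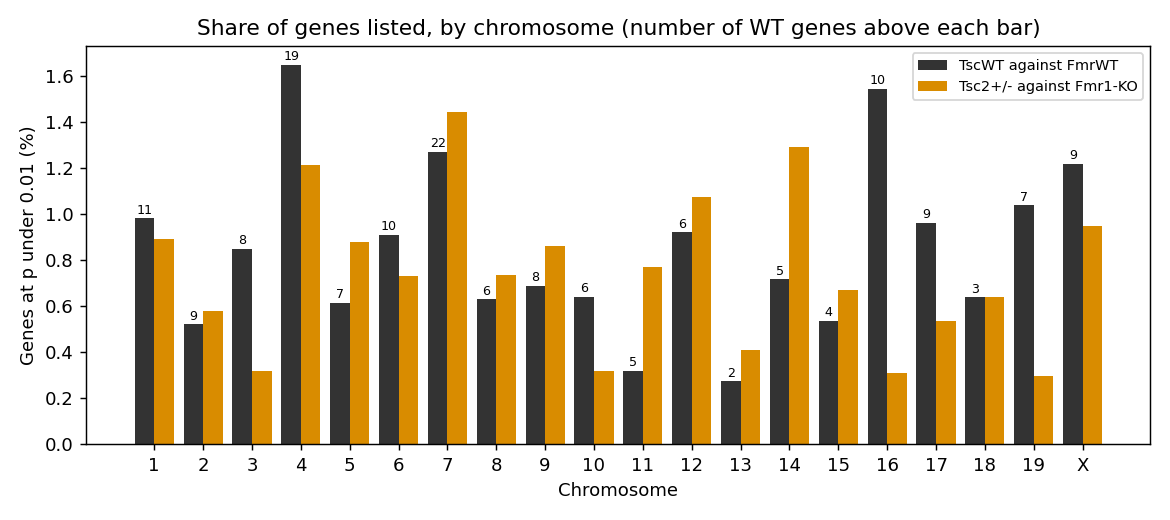
Percent of the genes of each chromosome (x axis) that were listed at p under 0.01 in wild-type cerebellum (dark bars, with the number of genes above) and in mutant cerebellum (light bars). Chromosome 4 is highest in the wild types at 1.65%, and chromosome 16 is at 1.54% in the wild types and 0.309% in the mutants.

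MicroRNA genes, which encode short RNAs that repress messenger RNAs, were grouped after their values had been seen. Of 298 measured probe sets of these genes, 3 were listed as brighter and 10 as dimmer in TscWT. Of all probe sets 0.38% and 0.908% were, and of all genes 0.211% and 0.627%. Their median log2 difference was -0.23 as deposited, and it was not computed after another scaling. The mature sequences of 4 of these genes, from RefSeq on GRCm38.p6, show which shared a seed, the bases 2 to 8 in capitals that pair with targets. Mir30a and Mir30c-2 are neighbours on chromosome 1 and have the same seed, Mir29a was dimmer in both pairs of groups, and Mir154 was brighter in the wild types.
mmu-miR-30a-5p (chr1:23272274-23272295, plus strand): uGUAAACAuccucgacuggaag
mmu-miR-30c-5p (chr1:23291714-23291736, plus strand): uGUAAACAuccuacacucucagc
mmu-miR-29a-3p (chr6:31062673-31062694, minus strand): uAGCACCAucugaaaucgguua
mmu-miR-154-5p (chr12:109738438-109738459, plus strand): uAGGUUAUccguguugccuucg

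Mir30a was at 57.6, 58.1 and 45.7 in TscWT and at 114, 104, 87.8, 85.9 and 97.3 in FmrWT, a log2 difference of -0.86 (SE 0.14, limma adjusted p = 0.397). Mir30c-2 was at 101, 73.5 and 72.2 against 125, 114, 118, 109 and 108. Both members of the shared-seed pair were thus dimmer in every TscWT mouse. In the mutants their log2 differences were -0.65 and -0.14. Mir29a, whose family is known for repressing collagen genes, was at 14.5, 14.2 and 9.59 against 29.3, 32.3, 29.1, 27.99 and 27.97. That is a low level, and it was again lower in Tsc2+/- (18.2, 12.4 and 12.4) than in Fmr1-KO (37.3, 18.9, 30.0, 27.5 and 34.0). Mir154, part of an imprinted cluster on chromosome 12, was at 181, 188 and 179 against 119, 104, 88.9, 136 and 108. Probe sets for microRNA genes may read precursor transcripts, and which RNA these read was not tested.

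Markers of the choroid plexus, the secretory tissue that lines the ventricles and makes cerebrospinal fluid, were dimmer in TscWT as a group. All 11 measured markers had a negative log2 difference, with a median of -1.16 where the median of all genes was 0.00. Of the 11, 1 was listed (Aqp1) and 7 were at p under 0.05, so the list's single call stands against 0.627% of all genes listed as dimmer. Ttr, the thyroid hormone carrier that choroid plexus secretes, was at 5634, 148 and 10950 in TscWT and at 11080, 11930, 12290, 11700 and 14400 in FmrWT. Sostdc1, a secreted BMP and WNT antagonist, was at 971, 129 and 2761 against 2280 to 3806. Kl, the anti-ageing gene klotho, was at 863, 121 and 2502 against 1934 to 2824. The 3 TscWT mice differed among themselves far more than the 5 FmrWT mice did: mouse 2 was almost without these transcripts, mouse 1 was intermediate, and mouse 3 was at or near the FmrWT range.

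**Figure D4:**
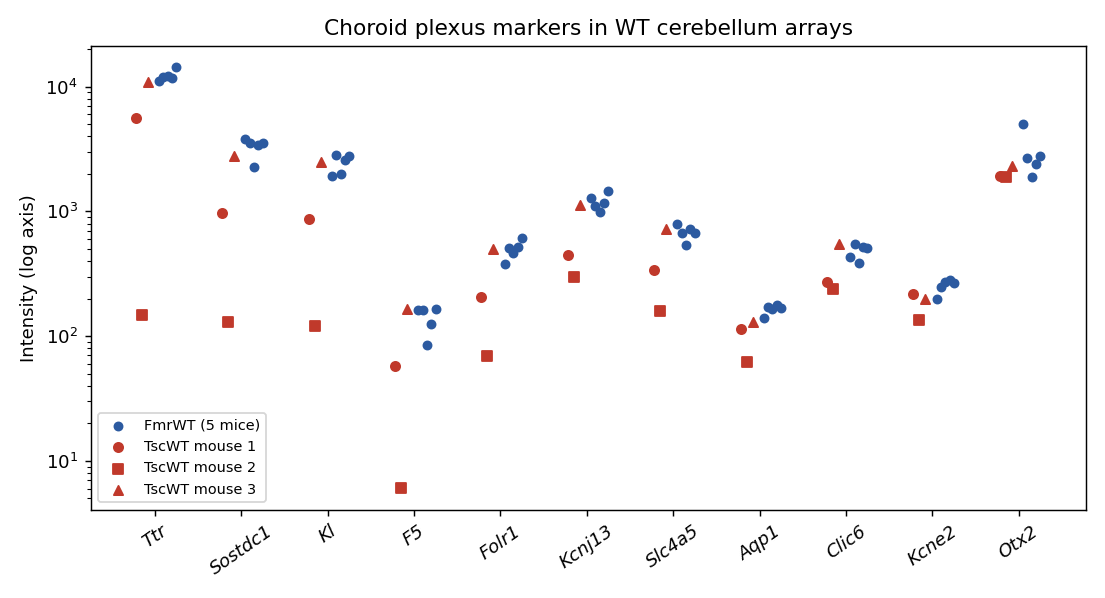
Intensity (y axis, log scale) of 11 choroid plexus markers (x axis) in wild-type cerebellum, with 1 point per mouse; the 3 TscWT mice have their own symbols. TscWT mouse 2 is the lowest point for every marker except Otx2, where TscWT mouse 2 is second lowest.

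The summed level of the 11 markers was 3265 to 21910 in TscWT and 21350 to 27390 in FmrWT, and 3032 to 22750 in Tsc2+/- against 21400 to 29050 in Fmr1-KO. The list's median in the mutants was -1.20, with all 11 negative. The summed levels of the Tsc2+/- mice were 3032, 19620 and 22750, so the lowest mouse lay far under the others. No mouse was left out for the mutant median. Without TscWT mouse 2 the wild-type median was -0.48, and over the 8 leave-outs it ran from -1.70 to -0.48. Aqp1, the water channel of the choroid plexus, was at 113, 62.3 and 129 against 139, 171, 166, 179 and 169. Kcnj13, a potassium channel of the same epithelium, was at 449, 300 and 1123 against 988 to 1469. Cldn2, Slc47a1 and Myo7a, which are among the leading dimmer genes and are not in the marker list, were likewise highest in TscWT mouse 3. The part of the choroid plexus level in these results was not tested.

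No marker of the main cerebellar cells was listed. In limma none of 14 Purkinje, 15 granule, 10 interneuron, 14 astrocyte and Bergmann glia, 13 microglia or 15 vessel and meninges genes was listed, and none was at p under 0.05. The Purkinje and granule medians were 0.00 and -0.02, and 0.10 and 0.08 after centring each array on its median. Of the 10 interneuron genes 9 had a positive log2 difference, with a median of 0.21 in the wild types and 0.19 in the mutants. Pcp2, a Purkinje cell gene, was at 3574, 4530 and 3409 against 3992 to 5199, and Slc17a7, the vesicular glutamate transporter of granule cells, at 7829, 8212 and 7879 against 5681 to 7883. Oligodendrocyte genes were brighter in TscWT for 14 of 16, with a median of 0.34 in the wild types and 0.41 in the mutants. None was listed and 3 were at p under 0.05, and the median without 1 mouse ran from 0.12 to 0.41. Mobp, a myelin protein gene, was at 25040, 23650 and 36780 against 26450, 20130, 18810, 18250 and 18180. TscWT mouse 3 and FmrWT mouse 1 were the highest of their groups for Mobp.

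Glucocorticoids act through a nuclear receptor that switches on a known set of genes. Of 16 such genes measured, 3 were listed as brighter (0.211% of all genes) and none as dimmer (0.627%), 5 were at p under 0.05, as were 2911 of all 35556 probe sets, and the list's median was 0.12. Nfkbia, the inhibitor of NF-kappaB, was at 1077, 1067 and 1183 against 597, 853, 772, 759 and 750. Ddit4, a stress-induced inhibitor of mTOR complex 1, was at 1065, 1294 and 1258 against 763, 976, 700, 867 and 862. Tsc22d3, which encodes GILZ, was at 733, 834 and 887 against 592, 656, 629, 651 and 619. None of these 3 overlapped between the groups, where 4.98% of all probe sets had groups apart. In the mutants they had log2 differences of 0.35, 0.31 and 0.53 and were not listed, and Fkbp5, another target, had 0.12 in the wild types.

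Immediate early genes, which neurons switch on within minutes of activity, did not move as 1 group. Of 21, Nr4a3 and Fosl2 were listed as brighter in TscWT (0.211% of all genes), and the median was 0.10. Nr4a3, a nuclear receptor of this class, was at 945, 1222 and 682 against 526, 348, 286, 427 and 153. Fosl2, an AP-1 subunit, was at 329, 329 and 326 against 229, 210, 224, 231 and 175. The groups did not overlap for either, while Fos (533, 544 and 597 against 305 to 625) and Egr1 (714, 806 and 815 against 475 to 1209) did overlap. FmrWT mouse 1 was the highest FmrWT mouse for Nr4a1, Egr1 and Dusp1, with Dusp1 at 5402 where the other 4 were at 1181 to 1898. In the mutants none was listed as brighter in Tsc2+/- (0.331% of all genes) and 5 as dimmer (0.446%), namely Fos, Npas4, Nr4a1, Jun and Btg2. The mutant log2 difference of Fos was -1.19 where it was 0.42 in the wild types.

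The promoter of Nr4a3 is printed because Nr4a3 had the second largest difference of the 14 leading brighter genes and its class is known to be driven through cyclic AMP response elements. In capitals is every TGACGT, the core of that element, searched on both strands over 250 bases before and 50 after the start (RefSeq, GRCm38.p6, plus strand, chr4:48045055-48045354).
Nr4a3 promoter: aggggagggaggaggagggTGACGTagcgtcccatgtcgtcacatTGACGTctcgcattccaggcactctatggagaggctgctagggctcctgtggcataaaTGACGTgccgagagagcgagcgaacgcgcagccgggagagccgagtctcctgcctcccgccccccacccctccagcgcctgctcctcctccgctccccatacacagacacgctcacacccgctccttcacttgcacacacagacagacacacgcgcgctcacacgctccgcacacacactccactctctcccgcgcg
It holds 3 matches, all on the printed strand. At least 1 match stands in 7.5% of 32851 promoters of this length and at least 3 in 0.2%. Of the 17 immediate early genes with a promoter in the table, 9 had a match. Fosl2, the other immediate early gene listed as brighter, had 0 matches.

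**Figure D5:**
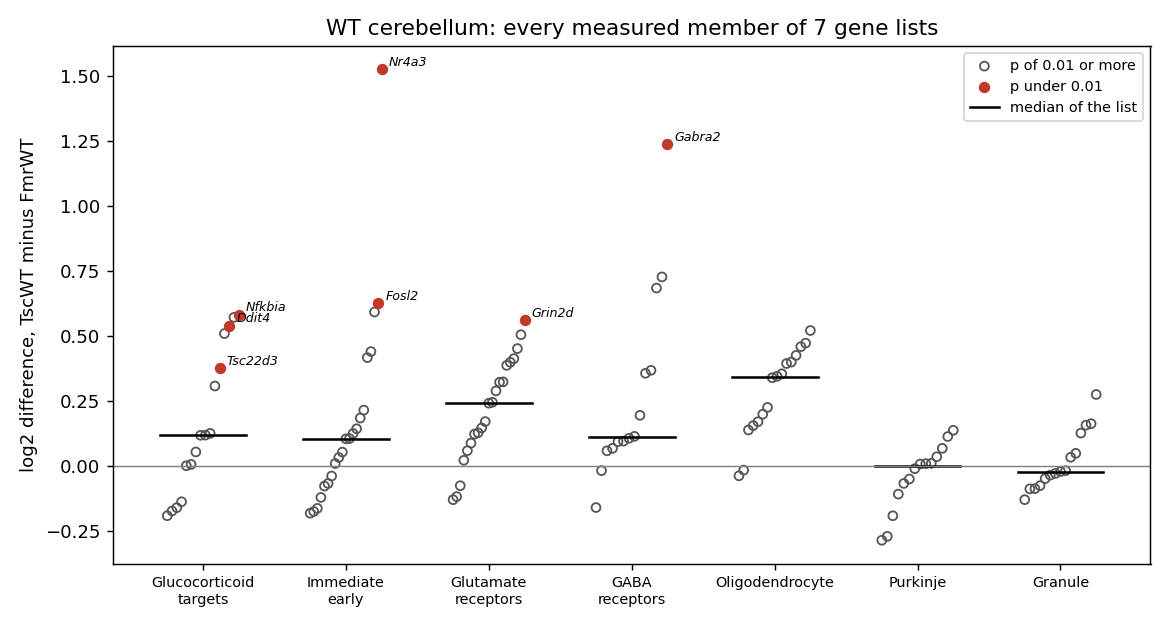
Log2 difference between TscWT and FmrWT (y axis) of every measured member of 7 gene lists (x axis); filled points were listed at p under 0.01 and lines are list medians. Listed members are Nfkbia, Ddit4, Tsc22d3, Nr4a3, Fosl2, Grin2d and Gabra2, and the oligodendrocyte median is 0.34.

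Glutamate and GABA receptors carry most fast signalling in the cerebellum. Of 21 measured glutamate receptor genes 18 had a positive log2 difference, with a median of 0.24, and 1 was listed as brighter, where 0.211% of all genes were. Grin2d, an NMDA receptor subunit, was at 332, 396 and 512 against 296, 251, 234, 303 and 305. Grid1, a delta receptor that organizes synapses, was at 631, 690 and 818 against 606, 505, 403, 490 and 518. Both were apart between the groups, by narrow gaps. In the mutants 4 glutamate receptor genes were listed as brighter, where 0.331% of all genes were: Grid1, Grin3a, Gria3 and Grm3, and Grin2d was at a log2 difference of 0.51. Among 14 GABA receptor genes Gabra2 was the only one listed. Gabra4 and Gabrb1, its neighbours in the same gene cluster on chromosome 5, had log2 differences of 0.09 and 0.19, and Gabrg1 one of 0.35. Gabra6 and Gabrd, the subunits typical of granule cells, had -0.02 and 0.06.

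The lists for the pathways that the mutations touch had no listed member. Ddit4, the listed inhibitor of mTOR complex 1 described above, is in neither list. In limma none of 19 mTOR pathway genes and none of 10 FMRP-related genes was listed or was at p under 0.05, with medians of 0.06 and 0.14. A further list holds the genes that the study names from its own comparison of the wild types over both tissues, so it was chosen on these samples and is no independent evidence. Of its 13 measured genes none was listed in limma and 2 were at p under 0.05. Cog7, a Golgi trafficking gene, was at 739, 760 and 755 against 657, 673, 586, 614 and 569. Of 58 ribosomal protein genes and 77 respiratory chain genes none was listed, 1 and 0 were at p under 0.05, and the medians were 0.01 and 0.05. Clock genes (16), heat shock genes (14), interferon-induced genes (19) and antigen presentation genes (13) had no listed member either, and 0, 1, 1 and 1 at p under 0.05. Of 16 genes of neighbouring brain regions none was listed and none was at p under 0.05. Of all genes 0.211% were listed as brighter and 0.627% as dimmer, and the counts that follow stand against these shares. Of 11 blood cell genes 2 were listed as dimmer, Car1 and Epb42, both at an intensity of 53.3 or less in all 8 arrays. Olfactory receptor genes, which cerebellum hardly uses, had a median of -0.26, and -0.09 after quantile normalization, with 1 of 1015 listed as brighter and 10 as dimmer. Vomeronasal receptor genes had a median of -0.26, with 2 of 163 listed as dimmer. Values of dim genes thus moved with the scaling of the arrays.

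The blood of the same 8 mice was compared in the same way and gave a broader difference, with 4259 probe sets listed (12%) and 47 at an adjusted p under 0.05 (0.132%). Of the 14 leading genes brighter in TscWT cerebellum, 5 were listed as brighter in TscWT blood (9.43% of probe sets) and 1, Cracd, as dimmer (2.55%). The 5 were Scp2, Rras2, Masp2, AI506816 and Nr4a3. As these were earlier picked on these samples as different in both tissues, their listing in blood is no independent evidence. Of the 14 leading dimmer genes, Aqp1 was listed as dimmer and Nlrc5 as brighter. Nlrc5, a regulator of MHC class I genes, has many probe sets on the array, which differ in level and in cerebellum mostly had negative log2 differences. Rec8 and Gabra2 had log2 differences of 0.08 and 0.54 in blood and Alad 0.27, none listed. Nnt had 0.46 in cerebellum and 1.16 in blood. The difference between the tissues was at an adjusted p under 0.05 for 227 probe sets (0.638%) with the mouse as a random block, among them Nlrc5, Glo1 and 4931408C20Rik. Glo1, which detoxifies methylglyoxal, had a log2 difference of 0.21 in cerebellum and of -1.15 in blood.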

How the data were processed

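RNA of cerebellum and blood was hybridized to whole-transcript Affymetrix arrays, and groups follow the deposited labels. The deposited intensity values were made by the authors with quantile normalization of probes over all 32 arrays and the PLIER model (Affymetrix Power Tools in the submitters' processing notes), with no version given in the sources used here. The effect of normalizing blood and cerebellum together was not tested. The array's probe sequences were not used here, so strain variants under probes were not tested.

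The log2 of each value, without an offset, was fitted in R 4.3.3 with limma 3.58.1 (lmFit, eBayes, two-sided, Benjamini-Hochberg over 35556 probe sets). Mice are the replicates, and p-values measure only the spread between these mice. The fits were tested on simulated data. The platform table gives 1 symbol for 21789 probe sets, several for 1621 and none for 12146, and 21698 were updated through the gene number. A gene was taken at its brightest probe set. No genome build is stated, so GRCm38.p6 gave only names, chromosome and gene order, apart from the RefSeq sequences.

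The genes named are the 14 largest differences in each direction at p under 0.01 without overlap and with a mean of at least 100 in the brighter group, olfactory, vomeronasal and predicted genes left out. Beside them stand the fixed lists, for most of which, as no member passed, the 2 genes of smallest p are named, Fmr1 and Tsc2, and the listed genes of 5 chromosome windows; other names were chosen after their values were seen. Members, lists and tests were chosen with earlier results of these data known. The alternatives are those of the closing section.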

Additional observations from a re-analysis of the deposited data

Results flagged for a closer look

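Within the 5 FmrWT arrays, 1 mouse lay far from the other 4 for 8 named genes and 1 unnamed probe set, by a test that chance meets in about 1 in 20 groups. With 120 named probe sets tested, that number is near what chance alone gives. FmrWT mouse 1 accounted for 5 of these: Akt1s1 at 577, Ide at 878, Kcnj9 at 3600, Mobp at 26450 and Trim12a at 128. Mouse 3 was low for Cldn2 at 125 and for Entpd4 at 1832, mouse 5 was high for C1qtnf12 at 653, and probe set 10468877 reached 158 in mouse 4.

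The difference between the wild types was not the same in cerebellum and blood, by the interaction term, for 3 named genes. The cerebellum difference minus the blood difference was 1.28 on the log2 scale for 4931408C20Rik, 1.36 for Glo1 and -1.40 for Nlrc5. For probe set 10340657 the mutant difference exceeded the wild-type difference by 9.83 on the log2 scale, at intensities near 0.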

How the results depend on the processing

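No called difference of a named gene changed sign under the alternatives run. For genes named because their groups were apart, leaving out a mouse could not change the sign. Of the 58 listed named genes, 34 were not listed by the methods' t-test and 43 with the replicate number as a block. After quantile normalization 19 of the 58 were not listed, and after centring 18. The balance of brighter and dimmer listed probe sets did change. It was 135 and 323 as deposited, 233 and 154 after quantile normalization, and 259 and 164 after centring each array on its median. List medians near 0 changed sign too, as for granule genes (-0.02, and 0.08 after centring) and blood cell genes (-0.17, and 0.00 after quantile normalization). Named genes passed an adjusted p under 0.05 in limma under some settings: Acer2, Rec8 and Mir29a with array weights, Acer2 and Rec8 without FmrWT mouse 1, Ly6g without TscWT mouse 1 and Trdn without TscWT mouse 3. The 2 probe sets at an adjusted p under 0.05 in wild-type cerebellum became 1 with 16 added before the log2, with probe sets under a mean of 64 left out, with an intensity trend or with a spread shared over all groups, 0 among gene-named probe sets and by the methods' t-test, 17 with array weights and 1 to 14 without 1 mouse, with the most without FmrWT mouse 1. The 458 listed became 288 gene-named, 3819 with array weights and 226 to 2522 without 1 mouse (fewest without TscWT mouse 2, most without TscWT mouse 1). The 1 probe set that passed in the mutants became 2 with the 16 added, after quantile normalization, without dim probe sets or with the trend, 3 with the shared spread, 0 gene-named and by the t-test, 2683 with array weights and 0 to 14 without 1 mouse. Their 431 listed became 208 gene-named, 757 with the shared spread, 4606 with array weights and 191 to 674 without 1 mouse. The 44 listed in both pairs became 29, 67 and 376 under the same 3 settings and 13 to 67 without 1 mouse. With the 16 added, 2683 probe sets passed in blood and 474 differed between tissues, and without 1 mouse these counts ran from 7 to 2324 and from 13 to 1722. The averaged difference gave 7 to 71 and the difference between pairs 3 to 4. The cause was not tested.

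Replicate numbers were shared between groups, but arrays of the same number did not deviate together (correlations of -0.016, -0.015 and 0.015 in the wild types). With the replicate number as a block, 5 probe sets passed and 139 were listed in the wild types, 0 and 173 in the mutants, and 16 in both pairs. The number of arrays, 3 against 5, limits the precision.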
